A study of Mus musculus with 140 samples.

Results

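The Sox, Fox, Tbx and Gata genes of the mouse encode 4 families of DNA-binding transcription factors, and the screen examined here listed genomic intervals with silencer activity in and around them. The members were all protein-coding autosomal genes whose symbol is Sox plus a number (without Sox2), Fox plus a letter and a number, Tbx plus a number, or Gata plus a number, in the GENCODE M21 annotation of mm10. This gave 75 genes of 20807 autosomal protein-coding genes: 17 Sox, 41 Fox, 12 Tbx and 5 Gata genes. Each gene was given a territory that runs from 10 kb before the body to 10 kb after it, and the listed intervals that overlapped the territory were counted. The territories held 268 of the 115165 intervals listed for mESCs and 236 of the 89596 listed for MEFs.

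The intervals came from Ss-STARR-seq, a reporter assay in which sheared genomic DNA is cloned into a plasmid, the pooled plasmids are transfected, and the RNA made from them is set against the plasmid pool. The labels describe 140 libraries: 56 of RNA from mouse embryonic stem cells (mESCs, output sets numbered 2, 4 and 5, kept in a 2i/LIF medium), 64 of RNA from mouse embryonic fibroblasts (MEFs, output sets numbered 1 to 4, kept in a serum medium) and 20 of the input plasmid DNA. The input titles carry the name hPGK, and the labels give no strain, sex, passage or genotype for either cell type. One list of intervals was deposited for each cell type, with a fold per interval and no value per library, so depth behind an interval is unknown, there is no replicate spread, and every error below covers counting alone. The counting errors also take intervals as independent, although neighbours can lie close together, so they are too narrow where intervals cluster. The labelled cell types could not be checked against marker genes, because the lists hold no expression values. A plasmid assay reads the cloned fragment and not the gene it came from, so an interval in a gene's territory shows neither that the gene is silenced nor that it is expressed.

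Sox factors bind DNA through an HMG box, Fox factors through a forkhead domain, Tbx factors through a T-box and Gata factors through zinc fingers. The families direct the choice of cell type in the embryo, among them neural and neural crest cells and cartilage (Sox), gut endoderm, liver and mesenchyme (Fox), heart and limb (Tbx), and blood, heart and endoderm (Gata). Most members have a compact body in a long non-coding neighbourhood, while SoxD genes such as Sox5 and Sox6 and FoxP genes such as Foxp1 and Foxp2 carry very long introns.

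The intervals that carry the results below are shown first, as the plus strand of mm10 (GRCm38.p6), credited to the RefSeq assembly. The first set holds intervals of high fold, or in a promoter, that both lists contain, and the capitals mark the bases that the other list holds too. The Foxp2 interval had the same ends in both lists and the highest mESC fold at any factor gene, and the Foxo1 interval had the highest MEF fold. The Gata3 and Tbx20 intervals were the highest-fold pairs of their families, and the Sox6 interval lies at a start site inside that gene.
Foxp2 mESC chr6:15390401-15390501: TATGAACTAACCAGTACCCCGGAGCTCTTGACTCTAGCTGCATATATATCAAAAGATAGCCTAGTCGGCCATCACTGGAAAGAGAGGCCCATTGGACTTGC
Foxo1 MEF chr3:52290401-52290601: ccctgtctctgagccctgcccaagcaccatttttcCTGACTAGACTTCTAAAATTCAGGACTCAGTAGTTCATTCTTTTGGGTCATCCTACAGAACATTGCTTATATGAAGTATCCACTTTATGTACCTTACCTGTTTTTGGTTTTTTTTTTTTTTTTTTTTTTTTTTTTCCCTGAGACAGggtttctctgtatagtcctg
Gata3 MEF chr2:9855965-9856165: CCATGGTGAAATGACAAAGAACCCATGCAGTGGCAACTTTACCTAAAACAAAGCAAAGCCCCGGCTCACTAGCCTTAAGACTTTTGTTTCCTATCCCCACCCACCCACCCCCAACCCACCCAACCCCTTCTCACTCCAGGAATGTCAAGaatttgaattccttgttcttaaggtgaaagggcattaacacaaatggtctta
Tbx20 MEF chr9:24783331-24783581: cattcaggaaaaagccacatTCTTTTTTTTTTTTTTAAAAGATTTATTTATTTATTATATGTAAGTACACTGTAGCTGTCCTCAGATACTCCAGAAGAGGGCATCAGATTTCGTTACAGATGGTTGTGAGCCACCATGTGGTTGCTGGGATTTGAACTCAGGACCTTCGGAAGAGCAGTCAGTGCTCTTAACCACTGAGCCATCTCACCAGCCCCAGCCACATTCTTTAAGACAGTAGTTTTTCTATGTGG
Sox6 mESC chr7:115846509-115846709: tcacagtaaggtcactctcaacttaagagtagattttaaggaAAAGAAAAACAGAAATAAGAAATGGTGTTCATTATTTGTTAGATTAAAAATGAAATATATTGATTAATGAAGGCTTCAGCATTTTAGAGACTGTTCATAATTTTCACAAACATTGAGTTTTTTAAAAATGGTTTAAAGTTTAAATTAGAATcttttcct

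The second set holds intervals that carry the letters bound by the gene's own family, which are in capitals, a set picked with the values already known. The Foxp2 interval is in an intron, was listed in mESCs and holds the forkhead letters TGTTTAC from base 171. The Sox5 interval is in an intron, was listed in MEFs and holds CCATTGT, the reverse complement of the Sox letters ACAATGG, from base 78. The Foxd4 interval is shown without capitals because it was the nearest to the main start of its gene among the intervals in members' own promoters, and it holds no forkhead letters.
Foxp2 mESC chr6:15298901-15299101: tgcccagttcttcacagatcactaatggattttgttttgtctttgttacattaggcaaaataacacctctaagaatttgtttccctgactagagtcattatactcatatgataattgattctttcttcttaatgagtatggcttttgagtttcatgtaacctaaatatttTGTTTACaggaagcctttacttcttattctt
Sox5 MEF chr6:144237105-144237301: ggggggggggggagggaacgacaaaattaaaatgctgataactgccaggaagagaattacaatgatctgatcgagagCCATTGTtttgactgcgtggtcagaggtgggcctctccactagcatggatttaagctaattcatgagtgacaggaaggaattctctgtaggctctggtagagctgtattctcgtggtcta
Foxd4 MEF chr19:24901398-24901495: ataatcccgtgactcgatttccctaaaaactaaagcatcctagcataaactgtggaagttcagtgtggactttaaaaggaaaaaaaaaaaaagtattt

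With territories of the body and 10 kb on each side, the factor genes as a group had interval densities within counting error of those of all genes, and in mESCs other territories ended this. Their territories held 45.4 intervals per Mb in the mESC list (exact Poisson 95% interval 40.1 to 51.2) and 40.0 per Mb in the MEF list (35.0 to 45.4). The territories of all autosomal protein-coding genes held 49.9 per Mb in the mESC list and 38.1 per Mb in the MEF list, which put the factor genes at 0.910 times all genes in mESCs and 1.05 times in MEFs. The median factor gene had 39.1 intervals per Mb in mESCs and 37.0 in MEFs, against 41.9 in mESCs and 32.7 in MEFs for the median of all genes. The factor genes also differed from all genes in base composition: their median territory was 48.7% GC and 20.3% soft-masked repeat, against 44.8% and 27.5%. With only intervals under 50% soft-masked counted on both sides, the ratio to all genes was 1.09 in mESCs and 1.24 in MEFs (exact Poisson lower bounds 0.947 in mESCs and 1.07 in MEFs). Territory lengths still included the repeats, of which the factor territories hold less, so these ratios do not compare like lengths of unmasked sequence. How much of the shift comes from this was not tested. In mESCs the ratio lay below 1 beyond counting error with 25 kb flanks (0.887, 0.797 to 0.983) and with territories of 10 kb either side of the 5 prime end (0.738, 0.558 to 0.959).

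**Figure D1:**
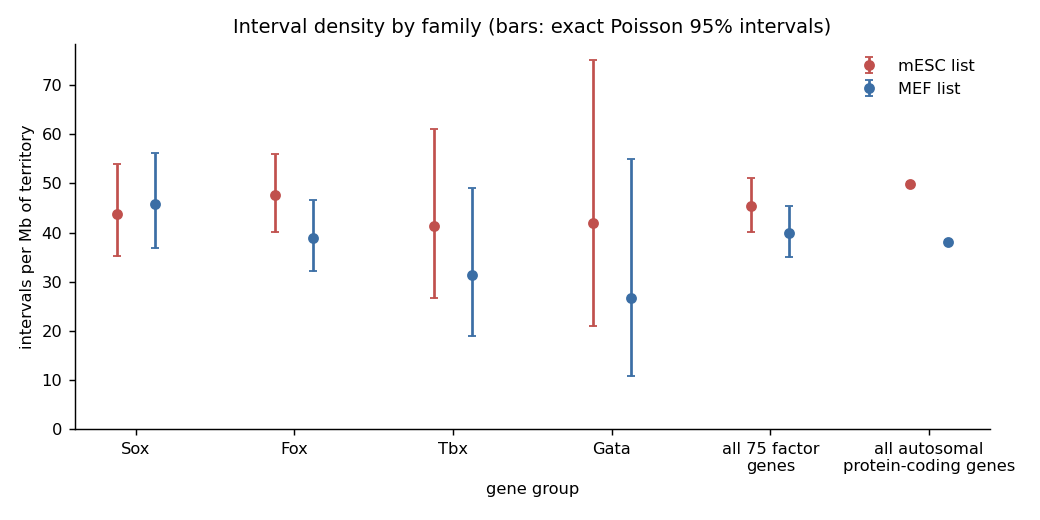
Interval density (intervals per Mb of territory, vertical axis) of the 4 families, of the 75 factor genes together and of all autosomal protein-coding genes, in the mESC list (red, left of each pair) and the MEF list (blue, right), with exact Poisson 95% intervals. The Sox genes held 43.9 per Mb in mESCs and 45.8 in MEFs, and the other families held more per Mb in mESCs than in MEFs.

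Within the families, the Sox genes held 88 mESC and 92 MEF intervals, 43.9 per Mb in mESCs and 45.8 in MEFs. The Fox genes held 144 mESC and 118 MEF intervals, 47.5 per Mb in mESCs and 39.0 in MEFs. The Tbx genes held 25 mESC and 19 MEF intervals, or 41.3 (mESC) and 31.4 (MEF) per Mb, and the Gata genes held 11 mESC and 7 MEF intervals, or 42.0 (mESC) and 26.7 (MEF) per Mb. The ratio of the Sox genes to all genes was 0.879 in mESCs (0.705 to 1.08) and 1.20 in MEFs (0.970 to 1.48). It was 0.523 in mESCs (0.239 to 0.994) and 0.777 in MEFs (0.373 to 1.43) around the 5 prime end. With only intervals under 50% soft-masked, again over whole territory lengths, it was 1.16 in mESCs (0.905 to 1.45) and 1.61 in MEFs (1.28 to 2.00). The mESC share of all intervals at the family was 48.9% for Sox, 55.0% for Fox, 56.8% for Tbx and 61.1% for Gata, against 56.7% over all genes. Over the 75 genes it was 53.2% (exact binomial 95% interval 48.7 to 57.6), which includes the share of all genes.

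A larger share of the factor genes than of all genes had no interval. In the mESC list 22 of 75 were empty (29.3%, against 22.7% of all genes), in the MEF list 31 were empty (41.3%, against 29.7%), and 15 were empty in both (20.0%, against 16.2%). The 15 were Sox1, Sox4, Sox10, Sox11, Sox15, Sox21, Foxb2, Foxc2, Foxf1, Foxi2, Foxo6, Foxs1, Tbx2, Tbx10 and Gata5. Among them are Sox4 and Sox11, SoxC genes of immature neurons, the neural crest regulator Sox10, and Foxf1 and Foxc2, which act in mesenchyme and vessels. The expected counts of these 15 ran from 1.06 for Foxs1 to 2.01 for Foxo6 in mESCs, and a count of 0 allows up to 3.69 within its 95% interval, so none of them was distinguishable from the rate of all genes. A further 16 genes had mESC intervals only (21.3%, against 13.6% of all genes), 7 had MEF intervals only (9.33%, against 6.50%) and 37 had both (49.3%, against 63.8%).

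Most factor genes are short, and genes were therefore also set beside all genes of like territory length, in a split chosen after the counts were seen. Of the 42 factor genes with territories of 20 to 30 kb, 13 were empty in both lists (31.0%), against 30.5% of all genes of that length. These 42 genes held 30.2 mESC intervals per Mb (20.6 to 42.9) and 29.3 MEF intervals per Mb (19.7 to 41.8), against 44.2 in mESCs and 32.7 in MEFs for all genes of that length. The counting interval in mESCs lies below the density of all such genes, and the one in MEFs includes it. In territories of 30 to 60 kb (16 genes) the densities were 41.3 in mESCs (27.5 to 59.7) and 28.0 in MEFs (16.9 to 43.8), against 51.6 (mESC) and 38.4 (MEF). In territories of 60 to 100 kb (8 genes) they were 41.6 in mESCs (26.9 to 61.4) and 29.9 in MEFs (17.7 to 47.3), against 56.0 (mESC) and 41.8 (MEF). In the 9 territories of 100 kb or more, Sox5, Sox6, Foxj3, Foxn3, Foxo1, Foxo3, Foxp1, Foxp2 and Tbx15, they were 51.1 per Mb in mESCs (44.0 to 59.1) and 47.0 in MEFs (40.2 to 54.6), against 48.8 (mESC) and 38.3 (MEF). Of these 4 classes the counting interval left out the density of all genes of like length in the shortest class in mESCs, where it lay below, and in the longest class in MEFs, where it lay above. Sox6 alone held 43 of the 169 MEF intervals of the longest class, and the class was not counted without it. The median gene of that class had 42.8 MEF intervals per Mb, against 36.9 for all genes of that length.

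**Figure D2:**
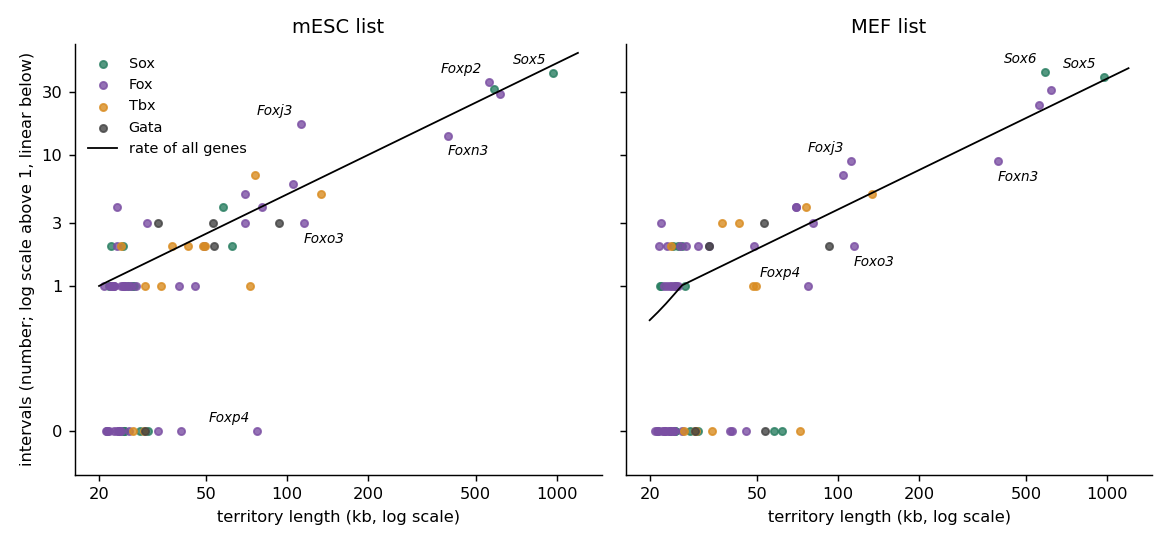
Number of intervals per factor gene (vertical axis, logarithmic above 1 and linear below) against territory length (kb, logarithmic), for the mESC list (left) and the MEF list (right), with colours for the families and a line at the rate of all genes, 49.9 per Mb in mESCs and 38.1 in MEFs. Foxj3 lies above the line in both panels and Foxp4 lies at 0 in mESCs and at 1 in MEFs, while most genes under 30 kb hold 0, 1 or 2 intervals.

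Sox5, Sox6, Foxp2 and Foxp1 together held 139 of the 268 mESC intervals (51.9%) and 137 of the 236 MEF intervals (58.1%), on 46.4% of the territory. Without them the remaining 71 genes held 129 mESC and 99 MEF intervals, 40.8 (mESC) and 31.3 (MEF) per Mb, or 0.818 (mESC, 0.683 to 0.971) and 0.821 (MEF, 0.667 to 0.9998) times all genes. The 4 genes were picked for having the most intervals in these same lists. That choice favours a lower density among the rest, so these ratios test nothing. This comparison was also chosen after the counts were seen.

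A gene was called dense where the exact Poisson 95% interval of its count lay wholly above the count expected from its length at the rate of all genes, and sparse where it lay wholly below, a call that needs an expected count over 3.69. In the mESC list 1 of 75 factor genes was dense, Foxj3, where 4.76% of all genes were. In the MEF list 1 of 75 was dense, Sox6, where 3.7% of all genes were. Of the 13 factor genes long enough to be called sparse in mESCs 1 was, Foxp4, where 8.08% of all such genes were, and of the 9 long enough in MEFs 0 were, where 6.15% of all such genes were. These shares are at or below the background. By their number the calls therefore set neither the 3 genes nor the families apart from all genes. The intervals behind the calls were not adjusted for the number of genes.

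Sox5 and Sox6 are SoxD genes, whose products lack an activation domain of their own and act with Sox9 in cartilage and also in neurons and oligodendrocytes. Sox6 (chr7:115470872-116038796, minus strand) held 32 mESC intervals, 54.4 per Mb (37.2 to 76.8), and 43 MEF intervals, 73.1 per Mb (52.9 to 98.5). The counts expected from its length were 29.3 in mESCs and 22.4 in MEFs, so Sox6 lay within counting error of the rate of all genes in mESCs and above it in MEFs. Its territory was 40.2% GC and 22.4% soft-masked. Of its intervals 14 of 32 in mESCs and 15 of 43 in MEFs overlapped the other list. In MEFs the fullest stretch of 50 kb, picked from these same intervals, held 11 of the 43 and was centred 447 kb from the start. The longest gap between neighbours there was 47.2 kb in MEFs.

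The mESC share of the intervals at Sox6 was 42.7%, against 56.7% over all genes. The two-sided exact binomial test gave p = 0.0192 unadjusted and an adjusted p of 1 (Benjamini-Hochberg over the 3549 genes with at least 10 intervals). Among intervals that overlapped nothing in the other list, 18 were mESC and 28 MEF (39.1% mESC). The mESC share of such intervals over all genes was higher, 61.5%. Against that share the exact binomial test gave p = 0.0023 unadjusted and 0.884 adjusted over 1663 genes. This p therefore has another reference than the p for all intervals. With all intervals counted, 9 factor genes were tested. Of these 0 were called toward mESCs, where 0% of all genes were, and 0 toward MEFs, where 0% of all genes were. Before adjustment 28 of the 3549 genes passed 0.05, with a shift toward mESCs in 11, and Sox6 was the only factor gene among the 28. The 28 are a smaller share than the cut-off of 0.05 allows. The test takes intervals as independent, but 36.4% of mESC and 47.4% of MEF intervals in the territories of all genes overlapped the other list. The lack of calls therefore does not show that no gene differs between the cell types.

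Sox5 (chr6:143828425-144781977, minus strand) has the longest territory of the group, 974 kb, and held 42 mESC and 39 MEF intervals. The expected counts were 48.6 in mESCs and 37.1 in MEFs, and both lay inside the counting intervals. All but 1 interval of each list lay in the introns, 41 of 42 in mESCs and 38 of 39 in MEFs. Before the midpoint of the body, the upstream flank included, lay 21 of the mESC intervals and 10 of the MEF intervals. The longest stretch without an interval was 113 kb in mESCs and 122 kb in MEFs. The other SoxD gene, Sox13, has a territory of 62.1 kb and held 2 mESC intervals and 0 MEF intervals.

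**Figure D3:**
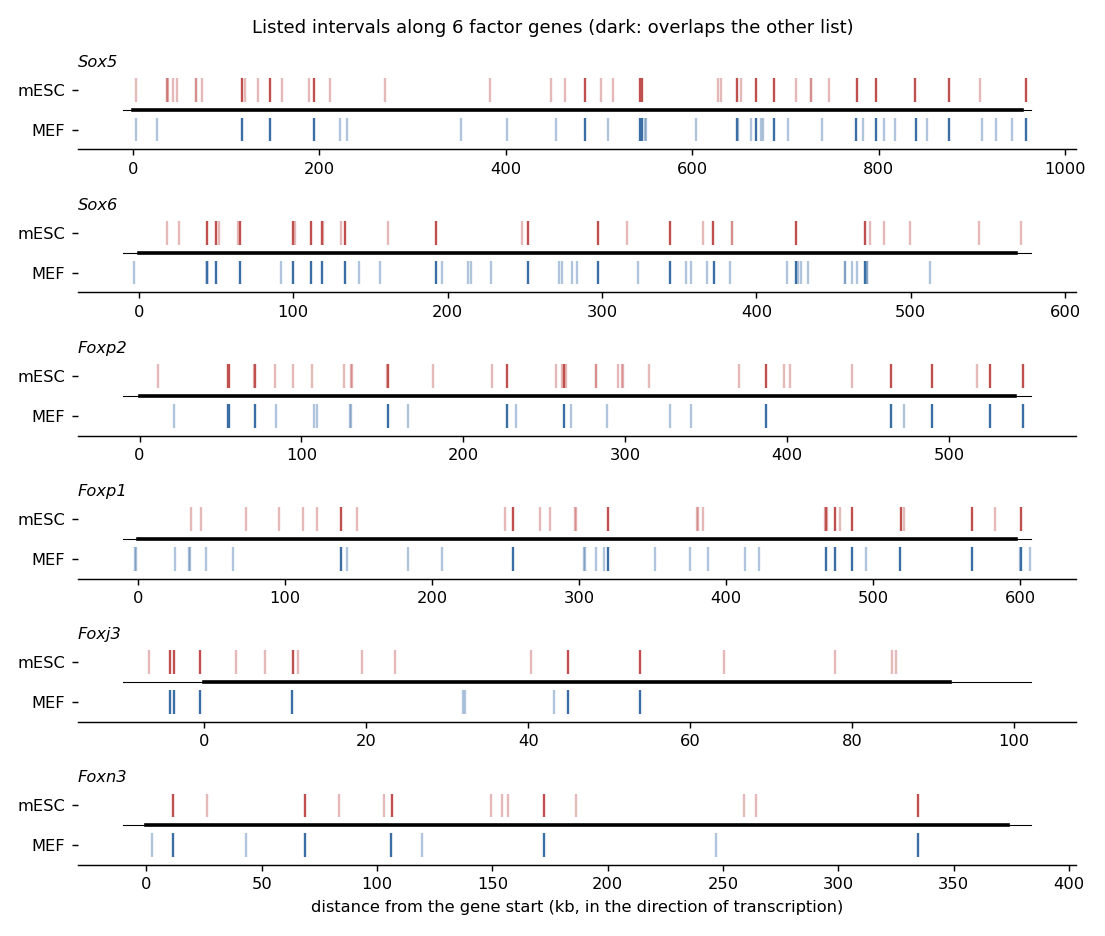
Positions of the intervals along the 6 factor genes with most intervals, by distance from the gene start (kb, in the direction of transcription), with mESC intervals above the line of each gene and MEF intervals below it. The thick line is the gene body and the thin line the 10 kb on each side, and dark ticks overlap the other list, as 14 of 42 mESC and 14 of 39 MEF intervals did at Sox5.

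The remaining Sox genes held few intervals each. The SoxB genes Sox1, Sox14 and Sox21 held 2 mESC and 1 MEF intervals, all of them at Sox14, a gene of ventral interneurons. The SoxC genes Sox4, Sox11 and Sox12 held 2 mESC and 2 MEF intervals, all of them at Sox12. Sox12 had the highest density of the Sox genes over both lists together, 164 per Mb, followed by Sox14 at 136 and Sox6 at 128, and the first pair rested on 4 and 3 intervals. The SoxE genes Sox8, Sox9 and Sox10 held 1 mESC and 3 MEF intervals, and the SoxF genes Sox7, Sox17 and Sox18, which act in endoderm and vessels, held 3 mESC and 4 MEF intervals. Sox30, a gene of male germ cells, held 4 mESC and 0 MEF intervals, where 2.88 (mESC) and 2.20 (MEF) were expected.

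Sox17, a regulator of endoderm and of blood vessels, carried the Sox interval of highest fold in each list. The fold is the authors' own, taken as a linear ratio, deposited per interval with its direction not given in the sources used here, and it serves below to rank intervals within a list. The interval at chr1:4485069-4485369, 12.1 kb from the Sox17 start on the downstream side, had a fold of 8.87 in the mESC list and 4.90 in the MEF list, the 99.3rd and 97.1st percentile of each list. Every base of it was soft-masked. The next Sox interval in mESCs lay in an intron of Sox5 at chr6:144235523-144235873, with a fold of 4.07, and overlapped a MEF interval of fold 3.27. Sox9, the cartilage and testis regulator, carried a MEF interval of fold 4.44 at chr11:112791571-112791821, 9.47 kb from its start, that no mESC interval overlapped. It was 61.3% soft-masked.

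The FoxP genes are long forkhead genes: Foxp1 acts in lymphocytes and heart, Foxp2 in brain circuits for vocalisation and in lung, and Foxp4 in lung. Foxp2 (chr6:14901349-15441977, plus strand) held 36 mESC intervals, 64.2 per Mb (45.0 to 88.9), and 24 MEF intervals, 42.8 per Mb (27.4 to 63.7), where 28.0 (mESC) and 21.4 (MEF) were expected. Its median fold was 2.80 in mESCs and 2.65 in MEFs, against medians of 2.42 (mESC) and 2.36 (MEF) over the lists. The intronic interval at chr6:15390401-15390501, 489 kb from the start, had folds of 24.4 in mESCs and 9.80 in MEFs, the 99.9th and 99.7th percentile of each list. It is the first sequence printed above, every base of it is soft-masked, and its ends were the same in both lists.

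Foxp1 (chr6:98925338-99522721, minus strand) held 29 mESC and 31 MEF intervals, 47.0 (mESC) and 50.2 (MEF) per Mb, where 30.8 (mESC) and 23.5 (MEF) were expected. Of these 9 in each list overlapped the other list. Foxp4 (chr17:47867133-47924645, minus strand) held 0 mESC and 1 MEF intervals, where 3.87 (mESC) and 2.95 (MEF) were expected. Its territory was 52.3% GC, and the call was lost with the rate taken from territories of the same GC decile, and also with the body alone, with 25 kb flanks, at or above the median fold and under 50% soft-masked.

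Foxj3, a forkhead gene linked to muscle fibres and to sperm formation in mouse, was the 1 factor gene called dense in mESCs. Its territory (body at chr4:119537004-119629119, plus strand) held 17 mESC intervals, 152 per Mb (88.3 to 243), and 9 MEF intervals, 80.3 per Mb (36.7 to 152), where 5.59 (mESC) and 4.27 (MEF) were expected. The lower bound in MEFs lies just under the 38.1 per Mb of all genes. Of the intervals 6 in each list overlapped the other list. Before the midpoint of the body, the upstream flank included, lay 12 of 17 in mESCs and 8 of 9 in MEFs. The fullest stretch of 50 kb in the territory of 112 kb, picked from these same intervals, held 11 in mESCs and 8 in MEFs. It was centred 18.2 kb from the start in mESCs and 20.8 kb in MEFs. In the body lay 13 mESC and 6 MEF intervals and the others lay upstream, where 3 in each list overlapped the body of Frg2f1. The highest fold at Foxj3 was 4.38 in mESCs and 7.26 in MEFs.

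**Figure D4:**
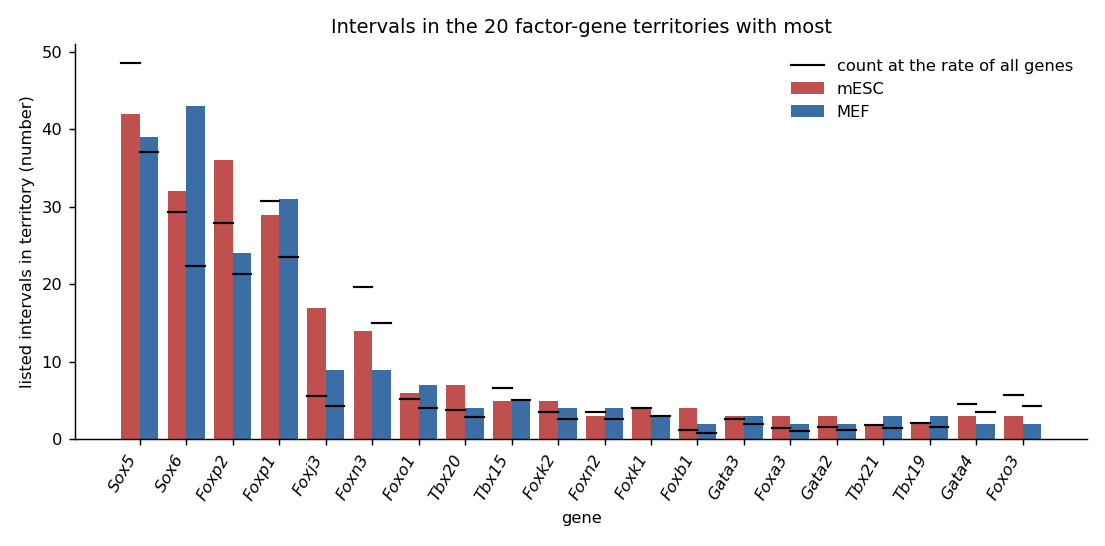
Number of intervals (vertical axis) in the 20 factor-gene territories with most intervals, for the mESC list (red, left of each pair) and the MEF list (blue, right), with a black line at the count expected from the length of the territory at the rate of all genes. Foxj3 stands at 17 against 5.59 expected in mESCs and Sox6 at 43 against 22.4 expected in MEFs.

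Other forkhead genes stood within counting error of their expected counts. Foxn3, a repressor of cell cycle genes, held 14 mESC and 9 MEF intervals, where 19.6 (mESC) and 15.0 (MEF) were expected. The FoxO genes answer to insulin signalling: Foxo1 held 6 mESC and 7 MEF intervals, Foxo3 held 3 mESC and 2 MEF intervals, and Foxo6 held 0 mESC and 0 MEF intervals. Foxk1 and Foxk2 repress genes of the starvation response: Foxk1 held 4 mESC and 3 MEF intervals, and Foxk2 held 5 mESC and 4 MEF intervals. Foxn2 held 3 mESC and 4 MEF intervals, and Foxa3, a gene of the liver, held 3 mESC and 2 MEF intervals.

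Foxb1, a gene of the hypothalamus, had the highest density of any factor gene over both lists together, 258 per Mb, on 4 mESC and 2 MEF intervals in a territory of 23.2 kb. None of them lay in its body. Foxd4 followed Foxj3 with 182 per Mb, on 1 mESC and 3 MEF intervals, and the lists shared none of them. At the other end of the Fox genes stood Foxp4 with 12.9 per Mb over both lists, Foxj2 with 22.0 and Foxn4 with 25.2, each on 1 interval, leaving out the genes with 0.

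Foxo1 carried the forkhead interval of highest fold in MEFs. The mESC list had chr3:52290436-52290581 with a fold of 13.0, and the MEF list had chr3:52290401-52290601, which contains it, with a fold of 10.9. The interval lies in an intron 22.2 kb from the start, and 35.8% of its MEF bases were soft-masked. Both folds were at the 99.8th percentile of their list.

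**Figure D5:**
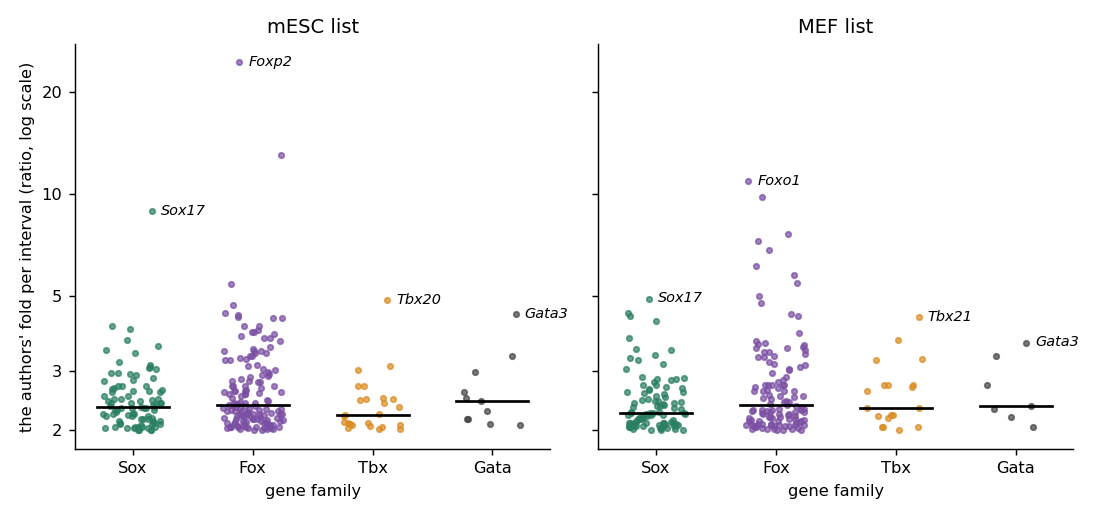
The authors' fold of each interval (taken as a linear ratio, logarithmic axis) by gene family, in the mESC list (left) and the MEF list (right), with a black bar at the family median and the gene of the highest interval named. Most intervals lie below 4, and the highest are at Foxp2 (24.4) in mESCs and Foxo1 (10.9) in MEFs.

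Among the T-box genes, Tbx20 held the most intervals, 7 in mESCs and 4 in MEFs, 91.9 (mESC) and 52.5 (MEF) per Mb, where 3.80 (mESC) and 2.90 (MEF) were expected. Tbx20 acts in the heart, and its counting intervals include the rate of all genes in both lists. Tbx15, which acts in limb skeleton and skin, held 5 mESC and 5 MEF intervals. Tbx19, which activates the Pomc gene in the pituitary, held 2 mESC and 3 MEF intervals, and so did Tbx21, the T-bet gene of type 1 helper T cells. The highest density over both lists was that of Tbx6, a mesoderm gene, 166 per Mb on 2 mESC and 2 MEF intervals, and then Tbx20 with 144 and Tbx21 with 134. Of the limb and heart genes Tbx5 held 1 mESC and 0 MEF intervals, where 3.62 (mESC) and 2.77 (MEF) were expected, Tbx3 held 1 mESC and 0 MEF intervals, Tbx4 held 2 mESC and 1 MEF intervals and Tbx2 held 0 mESC and 0 MEF intervals. Leaving out the genes with 0, the lowest densities over both lists were those of Tbx5 with 13.8, Tbx3 with 29.4 and Tbx1 with 33.7. The highest T-box folds were 4.85 in mESCs, at chr9:24783351-24783701 upstream of Tbx20, and 4.32 in MEFs, at chr11:97095451-97095601 downstream of Tbx21. The next in mESCs was an intronic Tbx15 interval of fold 3.10 at chr3:99309332-99309382, and the next in MEFs the Tbx20 interval printed above, of fold 3.70.

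Among the Gata genes, Gata2 of blood stem cells held 3 mESC and 2 MEF intervals, and Gata3 of T helper cells held 3 mESC and 3 MEF intervals. Gata4, of heart and endoderm, held 3 mESC and 2 MEF intervals, where 4.63 (mESC) and 3.54 (MEF) were expected, Gata6 held 2 mESC and 0 MEF intervals, and Gata5 held 0 mESC and 0 MEF intervals. Gata2 had 151 per Mb over both lists together, Gata3 113, Gata4 53.9 and Gata6 37.3. The interval of highest fold lay 34.0 kb from the Gata3 start, past its end, at chr2:9855935-9856113 in mESCs (fold 4.40) and chr2:9855965-9856165 in MEFs (fold 3.63). The next at the family were Gata4 intervals of fold 3.31 in mESCs and 3.32 in MEFs, which lie in an intron.

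Genes were also grouped by the tissue they are known for, in lists made with earlier results of these data known. The 8 endoderm genes held 12 mESC and 7 MEF intervals, where 15.5 (mESC) and 11.8 (MEF) were expected. Of the 8, 0 were called dense in either list, where 4.76% (mESC) and 3.7% (MEF) of all genes were, and a sparse call was possible only for Gata4, in mESCs, which was not called. The 13 heart and limb genes held 19 mESC and 12 MEF intervals, where 29.2 (mESC) and 22.3 (MEF) were expected, or 0.650 (mESC) and 0.537 (MEF) times all genes. Their 32.4 mESC intervals per Mb (19.5 to 50.6) include the density of all genes, and their 20.5 MEF intervals per Mb (10.6 to 35.8) lie below the 38.1 of all genes. The median heart and limb gene had 29.4 per Mb in mESCs and 0 in MEFs, against 41.9 in mESCs and 32.7 in MEFs over all genes. The 14 neural and neural crest genes held 118 mESC and 113 MEF intervals, where 119 (mESC) and 91.3 (MEF) were expected, but 7 of them were empty in mESCs and 6 in MEFs, and Sox5, Sox6 and Foxp2 held most of the total. Their 49.2 mESC intervals per Mb (40.8 to 59.0) include the density of all genes, and their 47.2 MEF intervals per Mb (38.9 to 56.7) lie above it. Of the 14, Sox6 alone was called, as dense in MEFs, where 3.7% of all genes were. Sox6 held 43 of the 113 MEF intervals. The 12 mesenchyme and skeleton genes held 85 mESC and 94 MEF intervals, where 96.6 (mESC) and 73.8 (MEF) were expected, and share Sox5 and Sox6 with the neural list. Their 43.9 mESC intervals per Mb (35.1 to 54.3) include the density of all genes, and their 48.5 MEF intervals per Mb (39.2 to 59.4) lie above it. Most of the 94 MEF intervals lay at Sox5 (39) and Sox6 (43). Among the 12 genes Sox6 alone was called, as dense in MEFs, where 3.7% of all genes were. The 8 blood and immune genes held 48 mESC and 50 MEF intervals, where 51.6 (mESC) and 39.4 (MEF) were expected, both inside the counting intervals.

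Genes outside the 4 families that share their domains or partner with them were counted in the same way. The 20 genes held 129 mESC and 92 MEF intervals, 57.4 per Mb in mESCs (47.9 to 68.2) and 40.9 in MEFs (33.0 to 50.2), against 49.9 (mESC) and 38.1 (MEF) over all genes, which both intervals include. The 5 with most were Zfpm2, the GATA partner FOG2, with 21 mESC and 17 MEF, Gatad2b of the NuRD complex with 19 mESC and 13 MEF, Tle4, a Groucho corepressor, with 14 mESC and 9 MEF, Trps1 with 8 mESC and 9 MEF, and Tcf7l2 of the Wnt pathway with 10 mESC and 6 MEF. Gatad2b was called dense in both lists. Mga, which carries a T-box, held 12 mESC and 2 MEF intervals and was called dense in mESCs. These were the dense calls among the 20, where 4.76% (mESC) and 3.7% (MEF) of all genes were dense.

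Some members lie side by side on the chromosome, and these linked groups were counted over their whole span. The span of Foxf1, Foxc2 and Foxl1 on chromosome 8 (66.3 kb) held 1 mESC and 0 MEF intervals, where 3.31 (mESC) and 2.53 (MEF) were expected. The span of Foxq1, Foxf2 and Foxc1 on chromosome 13 (276 kb) held 9 mESC and 12 MEF intervals, where 13.8 (mESC) and 10.5 (MEF) were expected. The span of Tbx2 and Tbx4 (104 kb) held 3 mESC and 3 MEF intervals, where 5.17 (mESC) and 3.95 (MEF) were expected. The span of Tbx3 and Tbx5 (235 kb) held 13 mESC and 6 MEF intervals, where 11.7 (mESC) and 8.94 (MEF) were expected, while the territory of Tbx3 held 1 mESC and 0 MEF of them and that of Tbx5 held 1 mESC and 0 MEF. Each expected count lies inside the counting interval of its span.

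The overlap of the lists was counted next. Of the 268 mESC intervals 90 overlapped a MEF interval (33.6%, exact binomial 95% interval 28.0 to 39.6), against 36.4% in the territories of all genes. Of the 236 MEF intervals 93 overlapped an mESC interval (39.4%, 33.1 to 46.0), against 47.4% in the territories of all genes, a value outside the interval. More than 50% of the 236 lay at 4 long genes. The overlapping MEF intervals there were 14 of 39 at Sox5, 15 of 43 at Sox6, 9 of 31 at Foxp1 and 11 of 24 at Foxp2. By family the MEF shares were 38.0% for Sox, 39.8% for Fox, 42.1% for Tbx and 42.9% for Gata. The counting interval of each family includes 47.4%. No interval lay in the territories of more than one factor gene. Overlapping pairs occurred at 31 genes. Of the 37 genes with both lists 6 had no pair (16.2%, against 19.5% of all genes with both lists): Sox9, Foxd1, Foxd2, Foxd4, Foxk1 and Foxq1.

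The intervals at the factor genes lay mostly in introns, 206 of 268 in mESCs (76.9%) and 184 of 236 in MEFs (78.0%), against 75.4% (mESC) and 75.6% (MEF) in the territories of all genes. Promoters, within 1 kb of any start site, held 10 mESC intervals (3.73%) and 11 MEF intervals (4.66%), against 4.57% (mESC) and 4.42% (MEF) in all territories. Coding exons held 0 of 268 mESC and 0 of 236 MEF intervals, which allows up to 1.12% (mESC) and 1.27% (MEF), against 0.970% (mESC) and 0.982% (MEF) in all territories, so a difference was not detectable at these counts. The bodies held 205 mESC and 179 MEF intervals, the upstream flanks 32 mESC and 32 MEF, and the downstream flanks 31 mESC and 25 MEF. Intervals at the factor genes were on average 31.7% soft-masked in mESCs and 28.2% in MEFs, against 39.7% (mESC) and 37.8% (MEF) in all territories. By family the means were 24.3% (mESC) and 19.7% (MEF) for Sox, and 35.1% (mESC) and 34.6% (MEF) for Fox. For Tbx they were 37.2% (mESC) and 33.8% (MEF), and for Gata 32.4% (mESC) and 17.5% (MEF). The median factor territory was itself less soft-masked, 20.3% against 27.5% over all genes. Whether the difference between intervals follows from this was not tested. The mean GC of intervals at the factor genes was 40.7% in mESCs and 40.5% in MEFs, against 40.4% (mESC) and 40.3% (MEF) in all territories.

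Own promoters were hit at 4 genes. Sox6 had 2 mESC and 4 MEF intervals near start sites inside the gene, with folds of 2.06 to 2.64. The MEF interval at chr7:115846551-115846701 lies inside the mESC interval chr7:115846509-115846709, printed above, 192 kb from the main start. Foxp2 had an mESC interval of fold 3.22 near an inner start 295 kb from the main start, and Foxp1 a MEF interval of fold 3.42 near one 495 kb from it. Foxd4 had a MEF interval of fold 2.72 at chr19:24901398-24901495, 0.249 kb upstream of the main start. RefSeq promoter windows of 49 of the 75 genes (60 windows) overlapped no interval of either list. No share over all genes stands beside these own-promoter counts, so neither this absence nor the 4 genes can be called few or many.

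The intervals were also searched for the letters that each family is known to bind. The motifs searched on both strands were ACAATGG for Sox, TGTTTAC for Fox, AGGTGTGA for Tbx and AGATAAG for Gata, in windows of 300 bp centred on each interval. The Sox letters occurred in 2 of 88 mESC windows (2.27%) and 4 of 92 MEF windows (4.35%) at Sox genes, against 4.82% (mESC) and 4.97% (MEF) of all windows of the lists. The Fox letters occurred in 8 of 144 mESC windows (5.56%) and 3 of 118 MEF windows (2.54%) at Fox genes, against 4.83% (mESC) and 4.87% (MEF). The Tbx letters occurred in 0 of 25 mESC and 0 of 19 MEF windows at Tbx genes, against 1.36% (mESC) and 1.21% (MEF). The Gata letters occurred in 0 of 11 mESC windows and 1 of 7 MEF windows at Gata genes, against 4.36% (mESC) and 4.19% (MEF). These matches describe letters and not binding.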

How the data were processed

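The authors deposited 1 interval list per cell type with a fold per interval, headed FC in the files and taken here as a linear ratio. No source used here gives the caller, the libraries behind the ratio or how replicates were handled. Bowtie2 and SAMtools are named without versions in the submitters' processing notes, which name hg38, while the design text names mm10. In both lists 0 intervals ended past an mm10 chromosome, so mm10 was used, with coordinates as given (1 bp uncertain). Counts per territory, exact binomial tests (Benjamini-Hochberg) and exact Poisson intervals were computed with Python 3.11.15, SciPy 1.17.1, pandas 2.3.3 and pysam 0.24.0, checked on simulated data. Tests describe the lists and have no replicate check. Members and gene lists were chosen with earlier results of these data known. Genes named were the 20 with most intervals, the 3 highest and lowest densities per family, called genes, own-promoter and empty genes, linked groups and the 5 related genes with most intervals; intervals named were the 2 of highest fold per family and list. Genes named beyond this were chosen after their values were seen. Alternatives changed the territory, the fold and repeat limits, the GC-matched rate, the overlap and the promoter width.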

Additional observations from a re-analysis of the deposited data

How the results depend on the processing

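The ratio of the factor genes to all genes was 0.738 in mESCs with territories of 10 kb either side of the 5 prime end and 0.887 with 25 kb flanks, both below 1 beyond counting error. With intervals under 50% soft-masked it was 1.09 in mESCs and 1.24 in MEFs. Ratios and calls under that limit used whole territory lengths, repeats included. Without Sox5, Sox6, Foxp1 and Foxp2 it was 0.818 in mESCs and 0.821 in MEFs. This alternative was chosen after seeing the data and drops the genes with most intervals, which favours a lower ratio. Of 66 alternative ratios of the group and its families to all genes, 13 lay on the other side of 1, and the counting interval lay below 1 in 5 and above 1 in 2, where every main interval includes 1. The mESC sparse count was 0 with the body alone, 25 kb flanks, intervals at or above the median fold, intervals under 50% soft-masked or GC-matched rates. The mESC dense count was 2 at the median fold (Foxp2 added), 3 under 50% soft-masked (Foxp2 and Sox6) and 2 at GC-matched rates (Foxb1). The MEF dense count was 2 with 25 kb flanks (Foxj3), 0 at the 5 prime end, 2 at the median fold (Foxd4) and 6 under 50% soft-masked (Foxd4, Foxj3, Foxo1, Foxp1, Sox5 and Sox6). Around the 5 prime end no gene could be called sparse. At 50% mutual overlap 27.2% of mESC and 30.9% of MEF intervals were shared, against 29.1% (mESC) and 37.7% (MEF) in all territories, and at the median fold 32.4% of MEF intervals, against 39.8%. Promoters of 5 kb held 20.1% (mESC) and 22.9% (MEF), against 25.2% (mESC) and 24.9% (MEF). The limit at the median fold also leaves fewer intervals to count, and the causes of these changes were not tested. In all, 106 values kept their call or stayed inside the counting interval of the main value and 26 did not. No paired analysis was possible because the lists hold no value per library.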
